A study of Mus musculus with 6 samples.

Results

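The inherited cyst genes Pkd1, Pkd2, Pkhd1, Bicc1 and Glis3 and the tuberous sclerosis genes Tsc1 and Tsc2 were examined in whole mouse kidneys at postnatal day 13. They were chosen by name, and are 7 of the 24422 genes in the count tables. The 3 Control kidneys were labelled wild type (the study also describes littermates with the floxed alleles and no Cre as controls, so their exact genotype is uncertain), and the 3 TfR1 knockout kidneys carried the floxed Tfr1f/f alleles with a Six2Cre transgene, labelled SixCre. All 6 mice were C57BL/6 on a diet with 220 ppm iron. TfR1, encoded by Tfrc, is the transferrin receptor, through which cells take up iron bound to transferrin. Six2Cre is active in nephron progenitors, whose descendants form the tubules from the glomerulus to the distal tubule. The collecting duct and stroma come from other lineages, and the study describes cells that escaped deletion, so a whole kidney mixes deleted and undeleted cells.

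Pkd1 encodes polycystin-1, a large membrane protein, and Pkd2 encodes polycystin-2, a cation channel that joins it. Both act at the primary cilium, and loss of either gives dominant polycystic kidney disease. Pkhd1 encodes fibrocystin, the gene of recessive polycystic kidney disease. Bicc1 is an RNA-binding protein and Glis3 a transcription factor linked to cilia, and mouse mutants of both form renal cysts. Tsc1 (hamartin) and Tsc2 (tuberin) form a complex that turns off Rheb, the activator of mTOR complex 1, a kinase complex that drives growth, and their loss also gives kidney cysts. Pkd1 and Tsc2 are neighbours in the genome. The question here was whether the messenger RNA of these genes differed between kidneys that lacked the transferrin receptor in nephron progenitors and controls.

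None of the 7 genes differed between the groups past the threshold, an adjusted p under 0.05. DESeq2's Wald test called 0 of 7, beside 14.9% of the 16509 genes tested, 13.4% of the 4066 genes with a mean of 1000 to 4000 normalized counts (the span of the 7), and 8.87% of all genes when a change of at least 2-fold was also asked. At an unadjusted p under 0.05 DESeq2 passed 2 of the 7, Tsc1 and Tsc2, both toward higher in the knockout, beside 27.3% of all genes in either direction and 13.8% in that direction. edgeR and limma-voom also called 0 of 7, beside 6.02% and 6.15% of genes, and each passed 1 of 7, Tsc2, at an unadjusted p under 0.05, beside 25.8% and 26% of genes. For 6 of the 7 genes the 95% interval of the change lay inside 2-fold, and Tsc1 was the exception. Because the kidneys were sequenced whole, fewer cells of a type and less RNA per cell cannot be told apart.

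The depth was ample for these genes. Total counts ran from 16591156 to 22898008 per library. Counts of a single member in a library ran from 839 to 5023, for a counting error of 1.41% to 3.45%, well under the spread between libraries of a group (coefficients of variation of 7.3% to 28.7% in Control and 7.27% to 44.9% in the knockout). The count of the whole Tfrc gene did not check the labels: it was 5534, 6485 and 3667 normalized counts in Control and 6976, 4045 and 5898 in the knockout. Only exons 3 and 4 are floxed, and the study describes cells that escaped deletion. Reads were not counted by exon, so the part of each was not tested. Markers of kidney segments did differ. The summed normalized counts of the thick ascending limb markers ran from 48860 to 96930 in Control and from 13803 to 25950 in the knockout, those of the distal convoluted tubule from 11272 to 22529 and from 736 to 1783, those of collecting duct principal cells from 7636 to 16880 and from 31950 to 60595, and those of macrophages from 1819 to 2792 and from 5002 to 5735. By DESeq2 all 5 limb markers and all 3 distal convoluted tubule markers fell, 3 of 6 collecting duct and 5 of 7 macrophage markers rose, and no marker of these 4 lists was at 0. Podocyte sums ran from 10387 to 15933 in Control and from 14710 to 17931 in the knockout, and 1 of 5 markers rose. Endothelial sums ran from 11553 to 19775 and from 12811 to 15577, and 0 of 5 markers passed in either direction. Intercalated cell sums ran from 4702 to 6249 and from 4006 to 4709, and 2 of 4 markers fell. Control replicate 3 stood apart from the other controls, with proximal tubule markers at 44955 (99882 and 99286 in the others) and stromal markers at 45049 (22396 and 21660). It also held the lowest Control sums for thick ascending limb, distal convoluted tubule and collecting duct markers. The log2 counts of Control replicates 1 and 2 correlated at 0.983, the highest of all pairs. With Control replicate 3 they correlated at 0.9595 and 0.9649. Why these libraries were so alike was not tested. TfR1 knockout replicate 2 stood apart from the other knockouts, with collecting duct markers at 60595 (31950 and 34421 in the others), and its log2 counts correlated with those of the controls at 0.901 to 0.908, against 0.933 to 0.945 for the other knockout libraries. Proximal tubule sums in the knockout ran from 38974 to 57751, with 1 of 6 markers higher and 3 lower, and stromal sums from 17419 to 26488, with 1 of 5 markers lower. The erythroid list was measured through 3 of its 5 genes, of which 1 fell, with sums of 3006 to 6249 in Control and 1699 to 6173 in the knockout and Hbb-b1 and Hba-a1 at 0. The part of these cell type differences in the values of the 7 genes was not tested.

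The polycystin genes were at similar levels in both groups. Pkd1 (chr17:24686895-24733459 in mm9, plus strand, 46 exons in its longest transcript) had normalized counts, listed here and throughout in the order of the replicate numbers, of 1673, 1655 and 2283 in the Control kidneys and of 2065, 1853 and 2274 in the knockout kidneys. The highest value was that of Control replicate 3, and the groups overlapped. The log2 fold change of the knockout over Control was 0.14 ± 0.20 (SE, n = 3 per group), with a 95% interval from -0.26 to 0.54 and an adjusted p of 0.701 by DESeq2 and 0.665 by edgeR.

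Pkd2 (chr5:104888469-104934838, plus strand, 15 exons), the channel partner of polycystin-1, had 4142, 3974 and 3208 normalized counts in Control and 3107, 4704 and 4149 in the knockout. Each group held 1 kidney well below its others (Control replicate 3 and TfR1 knockout replicate 1), and the groups overlapped. Its log2 fold change was 0.08 ± 0.22 (95% interval -0.35 to 0.51, DESeq2 adjusted p = 0.859), smaller in size than all but 13.4% of the genes tested. Its sign was not stable: it was -0.03 with total-count scaling, -0.03 without Control replicate 3 and -0.05 without TfR1 knockout replicate 2.

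**Figure D1:**
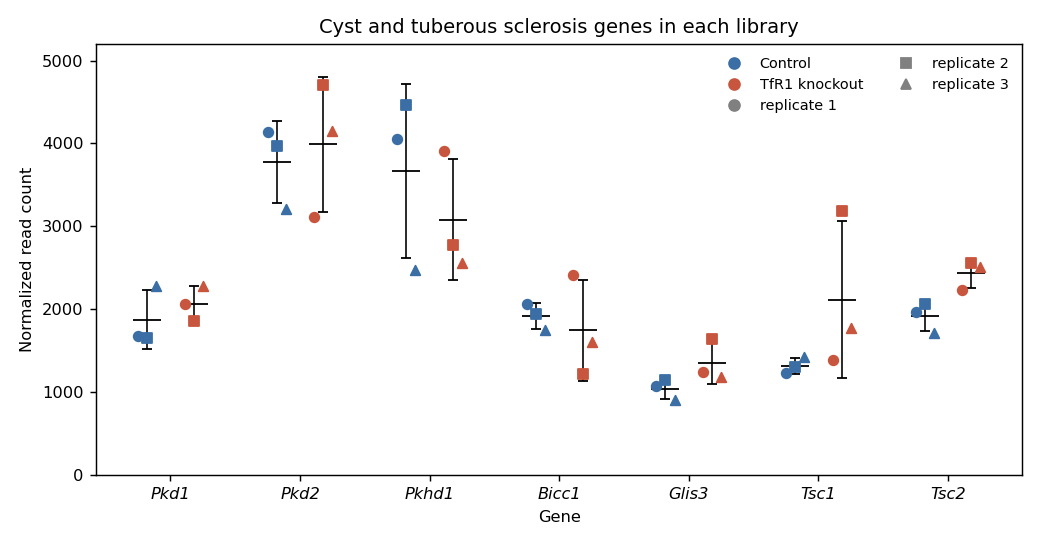
Normalized read count (y axis, linear from 0) of each gene (x axis) in the 3 Control (blue) and 3 TfR1 knockout (red) libraries, with the replicate number as the marker shape and black bars for the group mean and SD. The groups overlap for Pkd1, Pkd2, Pkhd1, Bicc1 and Tsc1, while the knockout values of Glis3 and Tsc2 all lie above those of Control, and TfR1 knockout replicate 2 is high for Tsc1 (3187) and low for Bicc1 (1217).

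Pkhd1 (chr1:20047860-20608145, minus strand, 67 exons) varied most among the Control kidneys. It had 4051, 4461 and 2470 normalized counts in Control and 3910, 2771 and 2557 in the knockout. The Control mean was 3661 ± 1050 (SD, n = 3) and the knockout mean 3079 ± 727, so the gap between means was smaller than either SD. The lowest value of all 6 was that of Control replicate 3, and the groups overlapped. The log2 fold change was -0.25 ± 0.29 (95% interval -0.81 to 0.31, DESeq2 adjusted p = 0.618, edgeR 0.553) and ran from -0.47 without Control replicate 3 to -0.09 without Control replicate 2.

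The promoters of 6 of the 7 genes were matched in RefSeq (GRCm38.p6, 250 bases before to 50 after the start), and that of Bicc1 was not among them. The GC content of the Pkhd1 promoter was 43.3%, the lowest of the 6, against 52.7% for the median of 32851 promoters and 55.3% to 76.3% for the others. Searched on both strands, the GC box GGGCGG, in 35.7% of promoters, was found 5 times in Pkd1 and 3 times in Glis3, and in none of the other 4. The TATA box TATAAA, in 13.6% of promoters, was in none of the 6. A match is a run of letters and not a measured binding site.

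The regulators Bicc1 and Glis3 did not pass the test either. Bicc1 (chr10:70385580-70622448, minus strand, 21 exons), an RNA-binding protein that joins Anks proteins, had 2059, 1940 and 1752 normalized counts in Control and 2408, 1217 and 1603 in the knockout. The knockout libraries held both the highest and the lowest value, and the groups overlapped. The log2 fold change was -0.14 ± 0.28 (95% interval -0.68 to 0.40, DESeq2 adjusted p = 0.796), and it was 0.07 without TfR1 knockout replicate 2 and -0.44 without TfR1 knockout replicate 1.

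Glis3 (chr19:28333341-28754567, minus strand, 11 exons) had 1074, 1143 and 903 normalized counts in Control and 1238, 1638 and 1175 in the knockout. All 3 knockout values lay above all 3 Control values. The log2 fold change was 0.38 ± 0.21 (95% interval -0.03 to 0.79), and the adjusted p was 0.231 by DESeq2 and 0.22 by edgeR. Without TfR1 knockout replicate 2, the highest value, it was 0.22.

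The tuberous sclerosis genes gave the 2 unadjusted p-values under 0.05 by DESeq2. Tsc1 (chr2:28496748-28546687, plus strand, 23 exons) had 1226, 1307 and 1418 normalized counts in Control and 1381, 3187 and 1774 in the knockout. TfR1 knockout replicate 2, the library with the high collecting duct markers, was far above the other 5 libraries, and the lowest knockout value lay below the highest Control value. The coefficient of variation was 7.3% in Control and 44.9% in the knockout. The log2 fold change was 0.68 ± 0.32 (95% interval 0.06 to 1.31), with an adjusted p of 0.137 by DESeq2 and 0.196 by edgeR. It was 0.27 without TfR1 knockout replicate 2, and 0.91 with a DESeq2 adjusted p of 0.014 without TfR1 knockout replicate 1, the only library whose omission brought a member past the threshold.

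Tsc2 (chr17:24732882-24769574, minus strand, 43 exons), whose protein holds the GTPase-activating domain of the complex, had 1966, 2060 and 1710 normalized counts in Control and 2230, 2559 and 2506 in the knockout. The groups did not overlap, and the means were 1912 ± 181 and 2431 ± 177 (SD, n = 3 each). Its log2 fold change was 0.35 ± 0.16 (95% interval 0.04 to 0.65), with an adjusted p of 0.125 by DESeq2 and 0.16 by edgeR. It stayed between 0.27 and 0.41 when each library was left out in turn. With total-count scaling Tsc2 was at 0.24 ± 0.14 and Tsc1 at 0.54 ± 0.28 (SE). With the replicate number as a block Tsc2 was at 0.35 ± 0.21. In these 3 fits the 95% interval no longer excluded no change. Glis3 and Tsc2 were thus 2 of 7 genes (28.6%) with every knockout value above every Control value, beside 16.9% of the genes tested, and 0 of 7 had every knockout value below, beside 16.9%. In a count this small, a difference of 1 gene moves the share past or below the background.

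**Figure D2:**
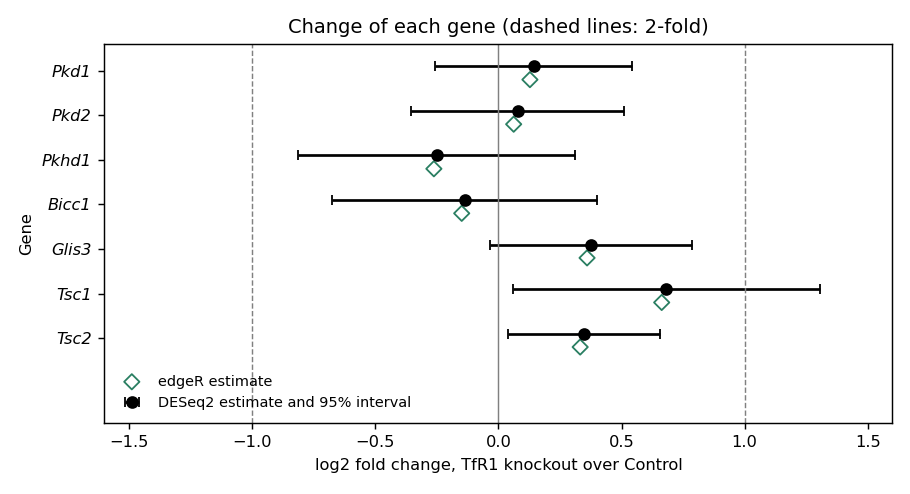
Log2 fold change of TfR1 knockout over Control (x axis) of each gene (y axis), with the DESeq2 estimate and its 95% interval in black and the edgeR estimate as a green diamond, and dashed lines at 2-fold. The intervals of 6 genes stay inside 2-fold, and that of Tsc1 reaches 1.31.

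The same data bound how large a change could have been. A DESeq2 test of the null of a change of 2-fold or more, chosen after the results were seen, gave an adjusted p of 5.48e-05 for Pkd1, 6.22e-05 for Pkd2, 6.9e-05 for Tsc2, 0.00208 for Bicc1, 0.00325 for Glis3 and 0.00902 for Pkhd1, and 0.21 for Tsc1. Thus 6 of 7 genes were called as changed by less than 2-fold, beside 62.6% of the genes this test could judge and 82.2% of the 4066 genes in the span of counts given above. The number of genes called was 5 without TfR1 knockout replicate 1 and 7 without TfR1 knockout replicate 2. This test was run with DESeq2 alone, with no second tool beside it. The test and the 95% intervals rest on the standard errors of DESeq2. Its share of false calls was above nominal in simulation, so these bounds may be too tight. Smaller changes are not bounded in this way: the upper limits of the 95% intervals of Glis3 and Tsc2 were 0.79 and 0.65 on the log2 scale. The median absolute log2 fold change of the 7 genes was 0.25, beside 0.34 over all genes tested, and the signed median was 0.14, beside 0.01.

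**Figure D3:**
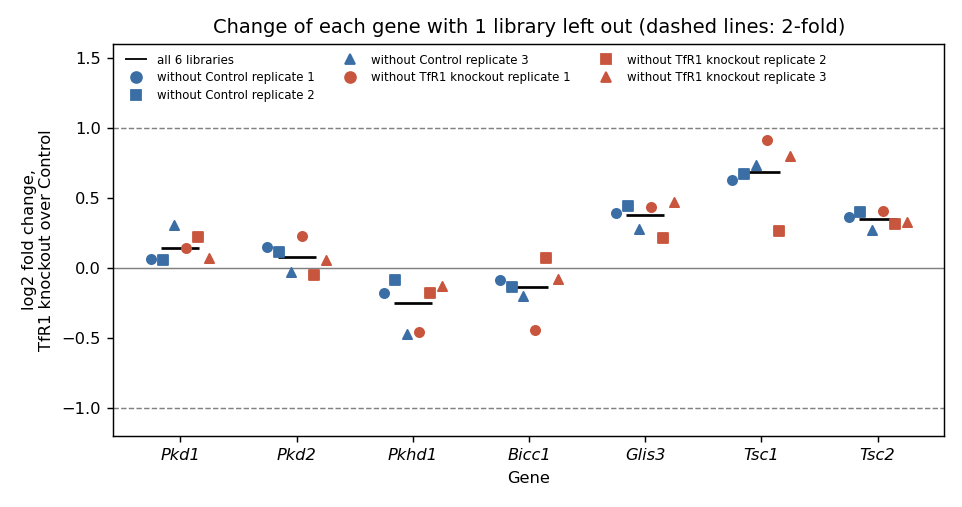
Log2 fold change of TfR1 knockout over Control (y axis) of each gene (x axis) in all 6 libraries (black bar) and with each library left out (points coloured by the group and shaped by the replicate left out), with dashed lines at 2-fold. No point reaches 2-fold, Glis3, Tsc1 and Tsc2 stay above 0 throughout, Pkd1 is between 0.06 and 0.31, and Pkd2 and Bicc1 cross 0.

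Levels were compared between genes per length, as reads per kilobase of merged annotated exons per 1000000 counts. Pkd2 was the highest, at 19.8 ± 1.99 in Control and 19.4 ± 3.07 in the knockout (SD, n = 3), followed by Tsc2 at 16.1 ± 0.902 and 19.0 ± 1.59. Bicc1 was at 13.8 ± 0.772 and 11.8 ± 4.76, and Pkhd1 at 13.6 ± 3.46 and 10.8 ± 2.99. The 3 lowest were Pkd1 at 7.10 ± 1.66 and 7.29 ± 1.34, Glis3 at 6.28 ± 0.508 and 7.53 ± 0.664, and Tsc1 at 5.97 ± 0.647 and 8.68 ± 3.06. Within Control the ranges of Pkd2 (17.7 to 21.6), Tsc2 (15.1 to 16.8) and Bicc1 (13.2 to 14.7) did not overlap. Tsc2 and Bicc1 each overlapped with Pkhd1 (9.66 to 16.2), and Pkd1, Glis3 and Tsc1 overlapped with each other, so their order is within the spread. In the knockout Pkd2 and Tsc2 overlapped (15.9 to 21.6 and 18.0 to 20.9). The levels depend on the length used: with the longest annotated transcript, the mean of all 6 libraries went from 19.6 to 38.2 for Pkd2 and from 7.32 to 11.3 for Tsc1. With that length Tsc2 was at 17.9 and Bicc1 at 17.5, against 17.6 and 12.8 with merged exons, so the gap between them depends on the length. Among the 14994 tested genes with a length, the 7 genes sat between the 51.2 and the 77.8 percentile of the level.

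Ratios of gene pairs within a library do not depend on library scaling. The ratio of Pkd1 to Pkd2 counts was 0.404, 0.417 and 0.712 in Control and 0.665, 0.394 and 0.548 in the knockout, and the groups overlapped. The difference in the mean log2 ratio was 0.09 (exact permutation test, two-sided, p = 1, where 3 kidneys against 3 cannot go below 0.1). The ratio of Tsc1 to Tsc2, the partners of the complex, was 0.624, 0.635 and 0.829 in Control and 0.62, 1.25 and 0.708 in the knockout. Only in TfR1 knockout replicate 2 did Tsc1 exceed Tsc2, and the groups overlapped (difference 0.24, exact permutation p = 0.7). The neighbours Pkd1 and Tsc2 had ratios of 0.851, 0.804 and 1.33 in Control and 0.926, 0.724 and 0.908 in the knockout, and the groups overlapped (difference -0.20, exact permutation p = 0.6). Pkhd1 to Pkd2 gave 0.978, 1.12 and 0.77 in Control and 1.26, 0.589 and 0.616 in the knockout, again overlapping (difference -0.30, exact permutation p = 0.5). Adjusted over the 4 ratios, the exact p-values were 0.933 to 1.

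**Figure D4:**
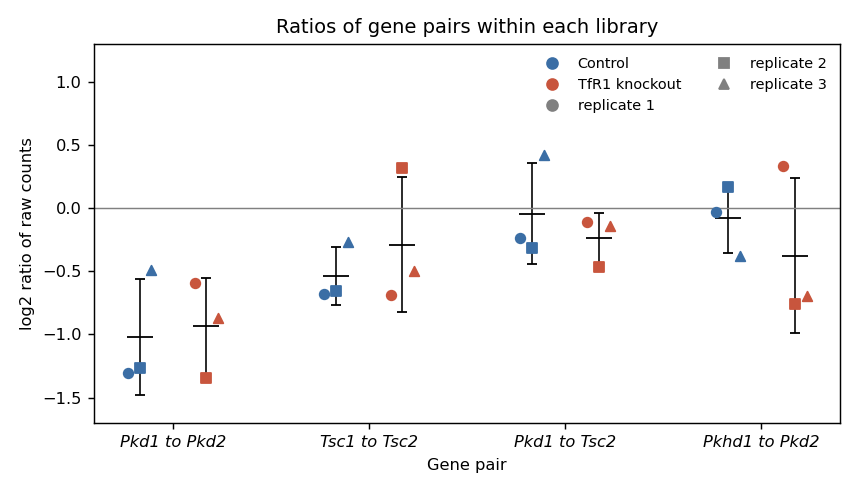
Log2 ratio of raw counts (y axis) of 4 gene pairs (x axis) within each Control (blue) and TfR1 knockout (red) library, with the replicate number as the marker shape and black bars for the group mean and SD. The groups overlap for all 4 pairs.

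Pkd1 and Tsc2 lie tail to tail on opposite strands and share 578 exonic bases (chr17:24732882-24733459), 4.074% of the merged exons of Pkd1 and 9.107% of those of Tsc2. Bicc1 shares 344 bases with 4930533K18Rik and Pkhd1 208 bases with 4930486I03Rik, each on the opposite strand. The strand setting of the counting was not given in the sources used here, so reads from these shared bases are uncertain for Pkd1, Tsc2, Bicc1 and Pkhd1.

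Genes related to the polycystins, the cyst regulators and the TSC complex were taken as 7 lists. Over these lists, 70 of 73 listed genes were tested, 5 rose and 4 fell by DESeq2 (backgrounds of 7.74% and 7.18% of genes), and 2 rose and 1 fell by edgeR (3.22% and 2.8%) and by limma-voom (3.17% and 2.98%). In simulation the share of false calls was above nominal for DESeq2 and nearer to it for edgeR, so a call by DESeq2 alone is less certain. The simulation held far fewer changed genes than were called here, so its share of false calls does not carry over to these data. Of the polycystin and fibrocystin relatives, 4 of 7 were tested and 0 passed by DESeq2 or edgeR, also at an unadjusted p under 0.05 (median log2 fold change -0.31, range -0.79 to 1.07). Pkd2l2, the relative with the highest count, had 153.7 ± 18.1 normalized counts in Control and 131 ± 34.5 in the knockout, and Pkd1l3 37.5 ± 19.4 and 78.7 ± 54.8. Of the 10 genes that fold, glycosylate or translocate polycystins in the endoplasmic reticulum, 1 fell (median -0.01). This was Alg6, a glucosyltransferase of N-glycan assembly, with 407, 373 and 573 normalized counts in Control and 305, 266 and 278 in the knockout (log2 fold change -0.67 ± 0.24, DESeq2 adjusted p = 0.037, edgeR 0.0984). The call was lost when any library but TfR1 knockout replicate 1 was left out.

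Of the 11 partners of Bicc1 and Glis3 and other cyst genes, 2 fell and 0 rose (median -0.08), and both were relatives of Glis3. Glis1, a zinc finger factor of the same family, had 113, 121 and 122 normalized counts in Control and 45.7, 66.5 and 50.1 in the knockout (log2 fold change -1.14 ± 0.29, DESeq2 adjusted p = 0.00128, edgeR 0.046). Glis2, whose loss gives the cystic disease nephronophthisis, had 5818, 6354 and 2493 in Control and 2609, 1641 and 2575 in the knockout, and here the groups overlapped because of Control replicate 3 (log2 fold change -1.10 ± 0.37, DESeq2 adjusted p = 0.0234, edgeR 0.11). The Glis2 call was lost without Control replicate 1 or 2 or TfR1 knockout replicate 2 or 3, and the estimate ran from -1.42 to -0.88. Thus DESeq2 called Glis1 and Glis2 lower in the knockout, Glis2 with overlapping groups. All 3 Glis3 values were higher, but Glis3 was not called. The difference between these genes was not tested.

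Of the 9 cyclic AMP and vasopressin genes, 1 fell (median -0.09). Pde1a, a phosphodiesterase that breaks down cyclic nucleotides, had 1528, 1479 and 1271 normalized counts in Control and 1112, 1025 and 994 in the knockout (log2 fold change -0.45 ± 0.16, DESeq2 adjusted p = 0.0341, edgeR 0.076). Its groups did not overlap. The call was lost without Control replicate 1 or 2 or TfR1 knockout replicate 2 or 3.

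In the lists around the tuberous sclerosis genes, the few calls were toward higher. Of the 14 subunits and effectors of the TSC and mTOR complexes, 2 rose by DESeq2 and 1 by edgeR, and 0 fell. Over all genes tested, 7.74% and 3.22% were called higher. The changes in this list went both ways (median 0.16, range -0.46 to 1.26). Eif4ebp1, the translation inhibitor that mTOR complex 1 phosphorylates, had 428, 438 and 702 normalized counts in Control and 1192, 1459 and 1104 in the knockout (log2 fold change 1.26 ± 0.26, DESeq2 adjusted p = 4.8e-05, edgeR 0.0262). Mtor, the kinase itself, had 1597, 1618 and 1387 in Control and 2113, 2179 and 2030 in the knockout (log2 fold change 0.46 ± 0.15, DESeq2 adjusted p = 0.0159, edgeR 0.0715), a call lost when any library but Control replicate 3 was left out. Tbc1d7, the remaining subunit of the TSC complex, had 335.8 ± 17 normalized counts in Control and 244 ± 42.3 in the knockout. All its knockout values lay below Control, the opposite direction to Tsc1 and Tsc2. Its log2 fold change was -0.46 ± 0.21 (unadjusted p = 0.0304 by DESeq2 and 0.0428 by edgeR). Rheb, the target of the complex, had 1618 ± 36.2 and 1842 ± 261, with all knockout values above Control. Neither Tbc1d7 nor Rheb passed (DESeq2 adjusted p = 0.132 and 0.503). Both were named after their values were seen.

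Of the 7 upstream inhibitors of mTOR complex 1, 2 rose by DESeq2 and 1 by edgeR, and 0 fell, beside 7.74% and 3.22% of all genes called higher. The median log2 fold change was 0.75, beside 0.01 over all genes. The list was chosen with earlier results of these data known, so this median is a description. Ddit4 (REDD1), a stress-induced inhibitor that acts through the TSC complex, had 1241, 1158 and 945 normalized counts in Control and 2604, 7985 and 2299 in the knockout. TfR1 knockout replicate 2 was the highest, as for Tsc1, and all knockout values lay above Control (log2 fold change 1.95 ± 0.45, DESeq2 adjusted p = 0.000346, edgeR 0.0554). Without that library the estimate was 1.14, and the DESeq2 call held with any library left out. Sesn2, a leucine sensor also induced by stress, had 467, 544 and 424 in Control and 819, 1320 and 979 in the knockout (log2 fold change 1.12 ± 0.24, DESeq2 adjusted p = 0.000107, edgeR 0.0256).

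Of the 15 genes of the amino acid arm that brings mTOR complex 1 to the lysosome, 1 rose by DESeq2 and 0 by edgeR. None fell (median -0.04), and 7.74% and 3.22% of all genes were called higher. Rragd, a Rag GTPase, had 1377, 1572 and 992 normalized counts in Control and 2305, 1955 and 1840 in the knockout (log2 fold change 0.63 ± 0.23, DESeq2 adjusted p = 0.0417, edgeR 0.1). This call was lost when any library but Control replicate 2 was left out. Of the 9 calls by DESeq2, edgeR also passed Eif4ebp1, Sesn2 and Glis1.

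**Figure D5:**
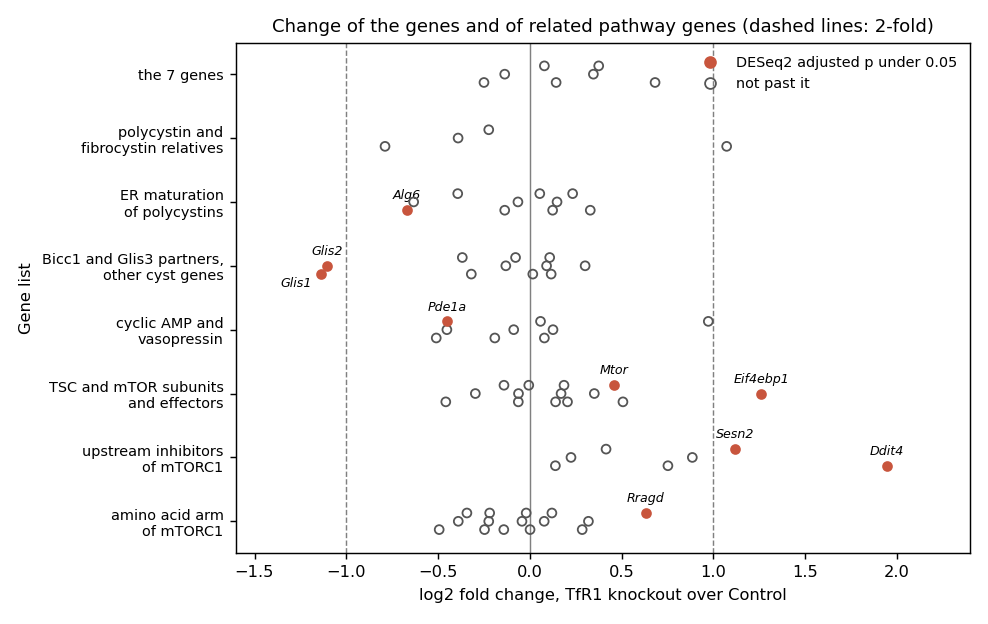
Log2 fold change of TfR1 knockout over Control (x axis) of the 7 genes and of each tested gene in 7 lists of related genes (rows), with filled red points for a DESeq2 adjusted p under 0.05 and dashed lines at 2-fold. The 7 genes hold no filled point, 5 related genes are filled to the right and 4 to the left, and Ddit4 at 1.95 is the farthest of them.

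The patterns of the 7 genes over the 6 libraries were compared with those of 12107 other genes whose normalized counts averaged 100 or more, by Pearson r of log2 (normalized count + 1). The genes most like the cyst genes were Loxl1 (r = 0.9938) and Ermard (0.9929) for Pkd1, Parg (0.9942) and Brap (0.9882) for Pkd2, Zdhhc6 (0.9901) and Acad10 (0.9882) for Pkhd1, Klhl26 (0.9914) and Bnip1 (0.9872) for Bicc1, and Errfi1 (0.9978) and Tmed4 (0.9973) for Glis3. Those most like the tuberous sclerosis genes were Dazap2 (0.9979) and Bex1 (0.9971) for Tsc1 and Nt5e (0.9977) and Tmem63b (0.9975) for Tsc2. None of the 7 genes shared a listed neighbour with another. The highest r among so many candidates over 6 points is high by selection, and the points share libraries and size factors, so these values are a description.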

How the data were processed

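Poly-A RNA from 6 whole kidneys was sequenced. The authors isolated it with TRIzol, made TruSeq libraries, sequenced them on a HiSeq2000, processed them with CASAVA 1.8.2 and Trimmomatic, aligned them with TopHat 2.0.11 to mm9, and deposited raw HTSeq counts per gene with no normalization. The annotation and strand setting were not given in the sources used here. The study describes its RNA-seq controls as littermates, but nothing in the labels ties a kidney to a litter. Any pairing by litter could therefore not be used, and p-values measure the spread between these samples.

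Groups were taken from the labels. DESeq2 1.42.0 in R 4.3.3 (Wald test, median-ratio size factors, Benjamini-Hochberg over all genes, independent filtering at 0.05) was fitted to the whole table, after the study's choice of tool. It left 16509 genes with an adjusted p. Ratios used the exact permutation test. Alternatives were edgeR 4.0.16 (quasi-likelihood), limma 3.58.1 with voom, other size factors and filters, a replicate block, other lengths and leaving out each library. The test for a change under 2-fold was added after the results were seen. Scripts were tested on simulated data, where the share of false calls by DESeq2 was above nominal, so edgeR values stand beside it. The members and gene lists were chosen with earlier results of these data known. All members were named, with up to 4 genes per list among those past the threshold by size of change, or the 2 of highest count in a list with none, and the 2 genes most alike to each member in pattern. Positions came from GENCODE vM1 (mm9) and promoters from RefSeq (GRCm38.p6). A further motif was searched in them and is not reported here.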

Additional observations from a re-analysis of the deposited data

How the results depend on the processing

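No member's call changed with another tool, scaling or filter. Direction changed for Pkd2, at -0.034 with total-count scaling (which moved the median of all genes to -0.097, from 0.007). With each library left out the log2 fold change ran from -0.053 to 0.23 for Pkd2, -0.442 to 0.068 for Bicc1, 0.265 to 0.913 for Tsc1, 0.055 to 0.308 for Pkd1, -0.47 to -0.089 for Pkhd1, 0.217 to 0.47 for Glis3 and 0.27 to 0.406 for Tsc2, and 0 to 1 members were higher past the threshold, the exception being Tsc1 without TfR1 knockout replicate 1. With each library left out the differences in log2 ratio ran from -0.085 to 0.352 for Pkd1 to Pkd2 and from -0.059 to 0.445 for Tsc1 to Tsc2. They ran from -0.331 to 0.035 for Pkd1 to Tsc2 and from -0.65 to -0.103 for Pkhd1 to Pkd2. As differences of medians over all libraries, the 4 ratios gave 0.396, 0.158, 0.093 and -0.666 in that order, against 0.087, 0.245, -0.195 and -0.296 as differences of means. Genes of the related lists called higher numbered 2 with edgeR, 2 with limma-voom, 3 with total-count scaling, 3 at 2-fold and 3 to 6 with a library left out, against 5, and those called lower 1, 1, 2 at 2-fold and 1 to 8 with a library left out, against 4. With the longest transcript as the length, mean levels were 38.2 for Pkd2, 17.5 for Bicc1, 8.12 for Glis3 and 11.3 for Tsc1. The cause was not tested for any of these.

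The replicate numbers were not taken to pair the kidneys: deviations of same-numbered libraries correlated at -0.0378, 0.0548 and 0.0899, and only number 3 matched best with itself. With the number as a replicate block, Tsc1 was at 0.591 (DESeq2 adjusted p = 0.113), no member's call changed, and related genes called lower numbered 2. Counting error of the members (at most 3.45%) was below the spread between kidneys. With 3 kidneys per group, the 95% interval of Glis3 still reached 0.79 on the log2 scale and that of Tsc1 1.31, and the part of cell type makeup was not tested.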
